A study of Mus musculus with 4 samples.

Results

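T cell receptor alpha (TRA) chains of transplanted mouse thymi were grouped by the segments they had joined. A chain was taken when its contig was called TRA, productive and full length, and chains with the same V segment, J segment and nucleotide CDR3 (the stretch across the V-J junction) were counted once per library. This gave 2057 distinct chains among 11821 contigs of the autonomy library and 1988 among 12034 contigs of the turnover library. Chains were split by TRAJ number into 3 groups, 40 or higher, 26 to 39 and 25 or lower, and by TRAV family number into families 16 or higher, 3 to 15, and 1 and 2.

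All 4 libraries came from wild-type thymi 28 days after transplantation, with thymocytes sorted as DN3-DN4, ISP and double positive. In autonomy the thymus keeps making T cells from cells it already holds, and in turnover incoming progenitors replace the resident cells. Each condition had 1 droplet 5′ gene expression library and 1 matched V(D)J library, and the labels named no host strain, no number of animals and no genetic change. Therefore no spread between animals could be measured, no test was made, and every interval below is a 95% interval that covers counting error only. Cells that share a TCR beta (TRB) chain can descend from the same ancestor and are then not independent, and 82.3% of autonomy against 3.54% of turnover cells with a productive TRB chain shared all of their TRB chains with another cell.

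The Tra locus lies on chromosome 14, with the V segments upstream and the J segments downstream. Rearrangement in double positive thymocytes usually starts by joining V segments near the J cluster to J segments at its upstream end, which carry the high TRAJ numbers. The same allele can rearrange again, which replaces the earlier join by one between a V segment farther upstream and a J segment farther downstream, with a lower TRAJ number. This goes on while the RAG recombinase is expressed, until positive selection or death of the cell.

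All 121 segment names called in the chains were found in the RefSeq annotation of GRCm38.p6, the build called mm10. The called TRAV segments covered chr14:52427967-53876752, a stretch of 1449 kb, and the called TRAJ segments covered chr14:54157280-54217901, a stretch of 60.6 kb that starts 281 kb beyond the last called V segment. TRAV1 (52427967 to 52428876) and TRAV2 (52567293 to 52568053) are the families farthest from the J cluster and have 1 copy each. TRAV17 (53806639 to 53807115), TRAV19 (53845322 to 53845827) and TRAV21 (53876016 to 53876752) also have 1 copy each and are the called families nearest to it. Families 3 to 16 have 3 to 15 copies that are scattered through the V region, so that the 3 copies of TRAV16 span 696 kb and a family number in this range gives only a rough position. Near-identical copies can be confused in segment calling, and several copies were never called, for example 5 of the 9 of family 4 (4 names were called).

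The chains shown first are those found in most cells, because they show how rarely an alpha chain recurred even in a library where most cells shared their TRB chains. Capitals mark bases between the parts matched to the V and the J end, with both ends inferred from the chains themselves, and all chains lie on chromosome 14. Each of these 3 chains was found in 4 barcodes, the first and second in autonomy and the last in turnover.
TRAV15D-2/DV6D-2 with TRAJ23: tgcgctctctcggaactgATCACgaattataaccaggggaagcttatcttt
TRAV7-4 with TRAJ27: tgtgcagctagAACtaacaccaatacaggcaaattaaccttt
TRAV5-1 with TRAJ23: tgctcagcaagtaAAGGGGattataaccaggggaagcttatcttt
The TRAV15D-2/DV6D-2 chain was in cells with 2 sets of TRB chains, the TRAV7-4 chain in cells with 3 sets and the TRAV5-1 chain in cells with 2 sets. In autonomy 9 chains were found in more than 1 barcode, and in turnover 9.

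Between the libraries 15 chains were shared, 0.729% of the autonomy and 0.755% of the turnover chains. None lay on a barcode that the libraries had in common (31 barcodes of the gene expression tables and 27 of the V(D)J tables were in both). The 6 shown stand for those 15, each found in 1 barcode per library, to make their short additions visible.
TRAV1 with TRAJ17: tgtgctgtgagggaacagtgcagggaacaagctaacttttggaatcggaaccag
TRAV12D-2 with TRAJ7: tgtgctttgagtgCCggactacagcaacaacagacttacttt
TRAV13D-1 with TRAJ22: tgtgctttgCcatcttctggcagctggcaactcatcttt
TRAV13D-1 with TRAJ30: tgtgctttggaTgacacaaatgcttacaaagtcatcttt
TRAV13N-2 with TRAJ9: tgtgctatGatgggctacaaacttaccttc
TRAV14-1 with TRAJ5: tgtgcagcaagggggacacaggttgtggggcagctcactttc
The 15 shared chains carried a mean of 1 unmatched base (SD 1.36 over chains), with 0 in 7 of them and a median CDR3 of 39 bases. Only bases between the V and J matches were counted. The TRAV1 with TRAJ17 chain, scored 0, ends in cag where the others shown end in ttt or ttc. Its last bases lie beyond the inferred J end and were neither marked nor counted, so its CDR3 and its productive call may be wrong. The 3960 scored chains found in 1 library carried a mean of 3.04 unmatched bases (SD 3.26 over chains), with 0 in 605 of them and a median CDR3 of 42 bases.

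The gene expression libraries held 16388810 UMIs (unique molecules) in autonomy and 20163286 in turnover, and the V(D)J contigs 105865 and 177475. Depth per chain was close, with a median of 4 UMIs per chain in each and 15.5% of autonomy against 12.2% of turnover chains seen with 1 UMI. Among barcodes with a chain, 188 of 1878 in autonomy and 198 of 1791 in turnover carried 2 distinct chains, and 2 and 5 carried more. After a filter on genes, UMIs and mitochondrial share, 4397 autonomy and 4194 turnover cells were kept, with medians of 2433 and 2117 UMIs, and a chain was found in 42.3% and 41.7% of them. The sort label was checked in the kept cells with a chain. Cd8a was detected in 94.0% of autonomy and 94.7% of turnover cells, Cd8b1 in 93.2% and 95.1%, Cd4 in 76.9% and 72.6% and Rag1 in 69.4% and 68.7%, as in double positive thymocytes. Ptcra, the partner chain of TRB before TRA is made, was detected in 36.4% of autonomy and 10.8% of turnover cells. Dtx1, a Notch target, was detected in 35.8% of autonomy and 0.458% of turnover cells. S1pr1, a marker of mature cells outside the sorted stages, was detected in 4.03% of autonomy and 0.114% of turnover cells. Of the B cell genes, Ms4a1 was at 0 in both libraries, Cd79a had 1 UMI in autonomy and 0 in turnover, and Cd79b was detected in 10.04% of autonomy and 12.9% of turnover cells. The globin genes Hba-a1 and Hbb-bs were at 0 in both. The segment calls could be set against the gene expression libraries: of cells with 1 chain, 74.4% in autonomy (1244 of 1672) and 73.9% in turnover (1144 of 1548) held at least 1 UMI of a Trav gene of the called family. Of the Trav UMIs in this check, 72.5% in autonomy (5304 of 7319) and 73.2% in turnover (5227 of 7142) were of the called family. The rest were of other families, and no rate for a family picked at random was computed.

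The first comparison asked how far along the J cluster the joins lay in each condition. Chains of TRAJ 25 or lower made up 58.4% of autonomy (1201 of 2057, interval 56.2 to 60.5) and 44.5% of turnover chains (885 of 1988, 42.3 to 46.7), a ratio of 1.31 (1.23 to 1.39). Chains of TRAJ 26 to 39 made up 25.04% (515 chains, 23.2 to 26.97) and 29.3% (583 chains, 27.3 to 31.4), a ratio of 0.854 (0.772 to 0.945). Chains of TRAJ 40 or higher made up 16.6% (341 chains, 14.995 to 18.3) and 26.2% (520 chains, 24.2 to 28.1), a ratio of 0.634 (0.561 to 0.716). The intervals of the libraries did not overlap for the upstream, the middle or the downstream group. With 1 chain kept for each TRB clone, the ratios were 1.24 (1.15 to 1.34) for TRAJ 25 or lower, 0.914 (0.803 to 1.04) for TRAJ 26 to 39 and 0.680 (0.581 to 0.796) for TRAJ 40 or higher, so that the interval of the middle group then held 1.

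Single J segments showed how the difference was spread. All 14 segments numbered 40 or higher had a lower share in autonomy than in turnover, with ratios of 0.420 to 0.889 and a median of 0.624. Of the 12 segments numbered 26 to 39, 11 had a lower share in autonomy (0.604 to 1.07, median 0.840). Of the 17 segments numbered 25 or lower, 15 had a higher share in autonomy (0.920 to 1.97, median 1.27). Among the 40 segments with at least 40 chains over both libraries, 4 had a share at least 1.5-fold higher in autonomy (10% of those compared) and 7 had a share at least 1.5-fold lower (17.5%). The 4 were TRAJ2, TRAJ7, TRAJ16 and TRAJ24, and the 7 were TRAJ45, TRAJ48, TRAJ52, TRAJ53, TRAJ56, TRAJ57 and TRAJ58. The 4 thus all lay in the downstream group and the 7 in the upstream group. Single segments were not run with 1 chain per TRB clone.

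**Figure D1:**
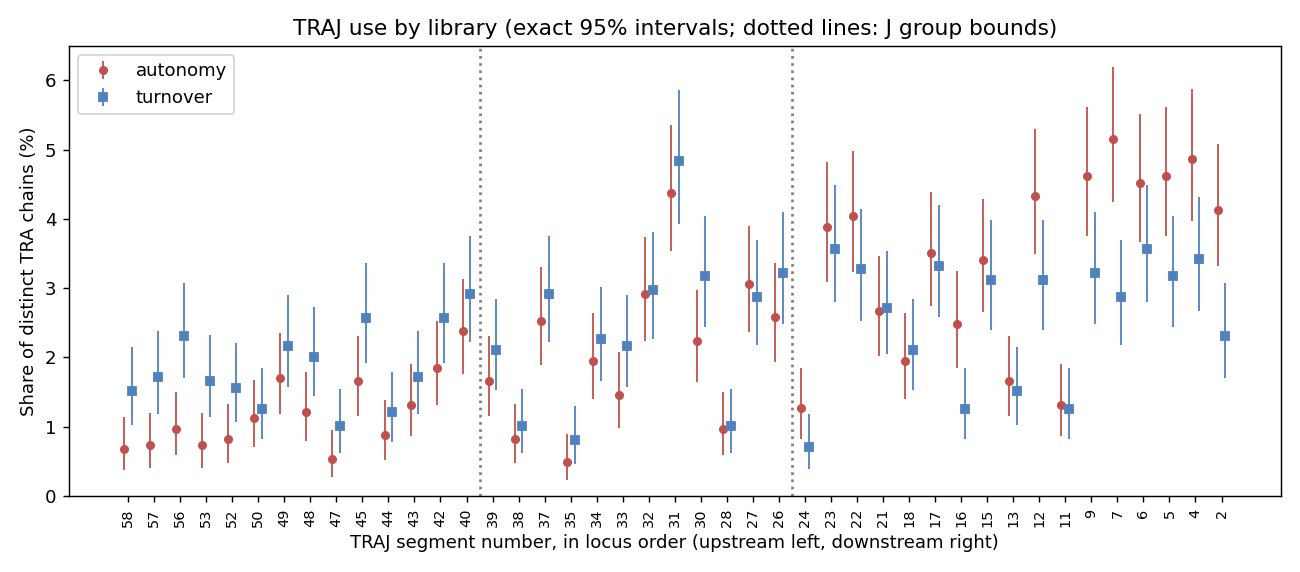
Share of distinct TRA chains that used each of 43 TRAJ segments (y axis, percent, with exact 95% intervals), for autonomy (red circles) and turnover (blue squares). The x axis gives TRAJ numbers in locus order, from the upstream end at the left. Autonomy points lie below those of turnover for all 14 segments left of the first dotted line and above them for 15 of 17 right of the second.

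The lowest ratio was that of TRAJ56, used by 0.972% of autonomy (20 chains) and 2.31% of turnover chains (46 chains), a ratio of 0.420 (0.249 to 0.708). TRAJ57 stood at 0.729% of autonomy and 1.71% of turnover chains (ratio 0.426, 0.233 to 0.780). TRAJ53 stood at 0.729% and 1.66% (ratio 0.439, 0.239 to 0.806), and TRAJ58, the most upstream segment called, at 0.681% and 1.51% (ratio 0.451, 0.240 to 0.848). These 4 are the most upstream segments that were called. At the other end, TRAJ16 had the highest ratio, with 2.48% of autonomy (51 chains) and 1.26% of turnover chains (25 chains), a ratio of 1.97 (1.23 to 3.17). TRAJ7 followed with 5.15% of autonomy (106 chains) and 2.87% of turnover chains (57 chains), a ratio of 1.80 (1.31 to 2.47). TRAJ24, the segment of fewest chains in its group, stood at 1.26% and 0.704% (ratio 1.79, 0.940 to 3.43), an interval that holds 1. TRAJ2, the most downstream segment called, stood at 4.13% and 2.31% (ratio 1.79, 1.25 to 2.54).

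The most used segments differed in place as well. In autonomy they were TRAJ7, TRAJ4 (4.86%), TRAJ5 (4.62%) and TRAJ9 (4.62%), all near the downstream end. In turnover they were TRAJ31 (4.83%, against 4.38% in autonomy), TRAJ6 (3.57%), TRAJ23 (3.57%) and TRAJ4 (3.42%), with TRAJ31 in the middle of the cluster. Intervals of most neighbours in these orders overlapped, for example 4.24 to 6.20 for TRAJ7 and 3.97 to 5.88 for TRAJ4 in autonomy, so their ranks are not settled at this depth.

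Full-length contigs not called productive, but with a CDR3 call, were set beside the productive ones. There were 268 distinct unproductive TRA contigs with V, J and CDR3 in autonomy and 296 in turnover. Of these, 15.7% in autonomy (11.5 to 20.6) and 27.03% in turnover (22.1 to 32.5) used TRAJ 40 or higher, a ratio of 0.580 (0.415 to 0.811). TRAJ 26 to 39 was used by 28.0% and 32.8% (ratio 0.854, 0.664 to 1.10). TRAJ 25 or lower was used by 56.3% (50.2 to 62.4) and 40.2% (34.6 to 46.0), a ratio of 1.40 (1.18 to 1.67). The unproductive joins thus lay in the same order between the libraries as the productive ones. No run with 1 chain per TRB clone was made for them, and the part of selection was not tested.

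On the V side, families 3 to 15 held 90.4% of autonomy and 90.3% of turnover chains (ratio 1.002, 0.981 to 1.02), and families 16 or higher held 5.88% (121 chains, 4.90 to 6.99) and 7.80% (155 chains, 6.66 to 9.06), a ratio of 0.754 (0.600 to 0.949). Families 1 and 2 held 3.69% (76 chains, 2.92 to 4.603) and 1.91% (38 chains, 1.36 to 2.61), a ratio of 1.93 (1.32 to 2.84). Some chains of families 1 and 2 came from cells that shared TRB chains, and whether this made the last difference was not tested. In autonomy, 68 of these chains, counted once per barcode, were in barcodes with a TRB chain and fell into 38 TRB sets. A single set, with 62 TRA chains in all, held 14 of them. All 1690 autonomy chains counted in this way fell into 586 sets. In turnover 36 such chains of families 1 and 2 fell into 36 sets. With 1 chain kept per TRB clone the ratio for families 1 and 2 was 0.993 (0.573 to 1.72). For families 16 or higher it was 0.803 (0.601 to 1.07), and 0.768 (0.582 to 1.01) with contigs of at least 3 UMIs, so that both intervals then held 1.

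Of 15 families with at least 40 chains over both libraries, 1 had a share at least 1.5-fold higher in autonomy (TRAV1, 6.67% of those compared) and 1 a share at least 1.5-fold lower (TRAV21, 6.67%). TRAV1 stood at 2.87% of autonomy (59 chains) and 1.61% of turnover chains (32 chains), a ratio of 1.78 (1.16 to 2.73). TRAV21 stood at 1.12% (23 chains) and 2.31% (46 chains), a ratio of 0.483 (0.294 to 0.794). No run with 1 chain per TRB clone was made for single families, and TRAV1 is part of the group whose ratio was 0.993 in that run. The next highest ratios were those of TRAV15 (1.28), TRAV4 (1.26) and TRAV10 (1.15), and the next lowest those of TRAV3 (0.853), TRAV6 (0.857) and TRAV7 (0.893). TRAV6 was the most used family in each library with 14.8% of autonomy and 17.3% of turnover chains, followed by TRAV7 with 13.6% and 15.2%, TRAV12 with 12.3% and 10.8% and TRAV13 with 10.1% and 9.36%. These are families of many copies, TRAV6 with 15 and TRAV7 with 14 in the annotation.

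The second question was which V and J segments went together within a library. Families 16 or higher had their highest share among chains with upstream J segments. They made up 15.8% of autonomy chains with TRAJ 40 or higher (54 of 341, 12.1 to 20.2), 4.47% of those with TRAJ 26 to 39 and 3.66% of those with TRAJ 25 or lower (44 of 1201, 2.67 to 4.89). In turnover they made up 18.5% (96 of 520, 15.2 to 22.1), 4.80% and 3.50% (31 of 885, 2.39 to 4.94). The share on TRAJ 25 or lower over that on TRAJ 40 or higher was 0.231 in autonomy (0.158 to 0.338) and 0.190 in turnover (0.128 to 0.280). Families 1 and 2 showed the opposite place. On TRAJ 40 or higher they were seen in 0 of 341 autonomy chains, which allows a share of up to 0.880% (3 counts), and in 1 of 520 turnover chains (0.192%). On TRAJ 25 or lower they made up 3.83% of autonomy (46 chains) and 2.94% of turnover chains (26 chains).

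The families with a single copy next to the J cluster gave the sharpest case. Of chains with TRAV17, TRAV19 or TRAV21, 80% in autonomy (32 of 40, 64.4 to 90.9) and 85.7% in turnover (66 of 77, 75.9 to 92.6) had joined TRAJ 40 or higher. Downstream joins of TRAJ 25 or lower numbered 4 of 40 in autonomy and 1 of 77 in turnover. The 4 in autonomy were all TRAV21, and the 1 in turnover was TRAV19. The median TRAJ number was 41 in autonomy (4 chains) and 49 in turnover (13 chains) for TRAV17, 48 (13 chains) and 56 (18 chains) for TRAV19, and 49 (23 chains) and 47.5 (46 chains) for TRAV21. At the far end of the locus the median was 23 in autonomy and 19.5 in turnover for TRAV1 and for TRAV2. The most upstream J segment of a TRAV1 chain was TRAJ37 in autonomy and TRAJ40 in turnover.

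**Figure D2:**
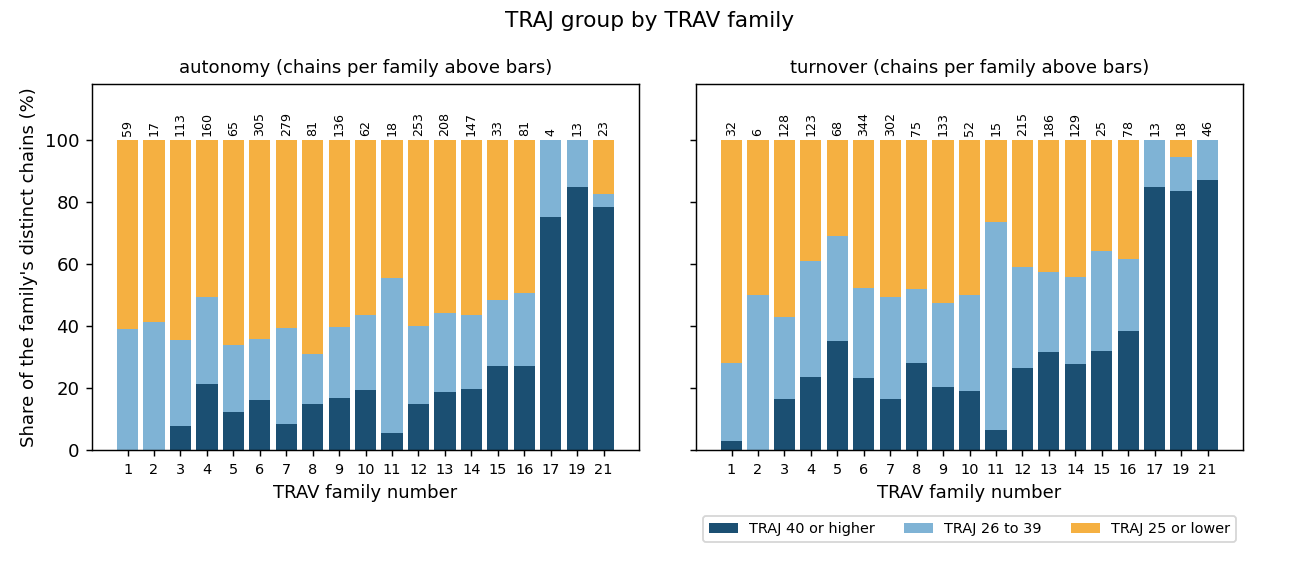
Share of each TRAV family's distinct chains (y axis, percent) with TRAJ 40 or higher (dark blue), 26 to 39 (light blue) and 25 or lower (orange), for autonomy (left) and turnover (right). The x axis gives the family number and the numbers over the bars count chains. Families 17, 19 and 21 hold 75% to 87% upstream J segments, and families 1 and 2 hold 0% to 3.13%.

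Families in between were less distinct. In autonomy the median TRAJ number of families 3 to 16 lay between 15 (TRAV8) and 26 (TRAV11 and TRAV16), and in turnover between 22 (TRAV3) and 35 (TRAV15). Each of these 14 families had a lower median in autonomy than in turnover, for example 17 and 26.5 for TRAV6, 21 and 32 for TRAV5, 21 and 23 for TRAV7, and 22 and 30 for TRAV12. TRAV11 held few upstream J segments in either library, 1 of 18 chains in autonomy and 1 of 15 in turnover. Over all chains the Spearman correlation of family number with TRAJ number was 0.0829 in autonomy (n = 2057) and 0.153 in turnover (n = 1988). With start coordinates in place of numbers it was -0.0565 and -0.137, the sign turning because TRAJ numbers fall along the chromosome. These are descriptions, since chains of related cells and scattered copies enter them. Within TRAJ 40 or higher the correlation of the numbers was 0.129 in autonomy and 0.146 in turnover. Within TRAJ 25 or lower it was -0.0286 and -0.0157.

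Copies of families 3 to 16 carry the suffix D, N or none. Called D copies start between 52683964 (TRAV7D-2) and 53078547 (TRAV14D-3/DV8), and called N copies between 53091346 (TRAV7N-4) and 53351090 (TRAV16N). Copies with no suffix lie on both sides of these, from TRAV3-1 (52580762) to TRAV13-5 (53795455), and so are not 1 stretch of the locus. Chains called with N copies had the lowest TRAJ numbers, with a median of 15 in autonomy (495 chains) and 21.5 in turnover (452 chains), and 71.5% and 57.3% of them used TRAJ 25 or lower. Chains of D copies had medians of 22 (825 chains) and 30 (837 chains), and those with no suffix 23 (621 chains) and 28 (584 chains). TRAJ 40 or higher was used by 9.90% of autonomy and 17.9% of turnover chains with N copies. The N copies lie nearer to the J cluster than the D copies, although their TRAJ numbers were lower. The calls between such copies rest on few differing bases, which limits this order.

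Whether the libraries also differed in pairing was asked within each J group. Families 16 or higher were at 15.8% of autonomy and 18.5% of turnover chains with TRAJ 40 or higher (ratio 0.858, 0.633 to 1.16). The ratio was 0.930 (0.543 to 1.59) with TRAJ 26 to 39 and 1.05 (0.666 to 1.64) with TRAJ 25 or lower. A difference was not detectable at this number of chains, and the intervals allow one of more than 1.5-fold in each J group. For families 17 or higher, nearest to the J cluster, the ratio was 0.739 (0.496 to 1.10) with TRAJ 40 or higher. It was 0.453 (0.143 to 1.44) with TRAJ 26 to 39, from 4 autonomy and 10 turnover chains. With TRAJ 25 or lower it was 2.95 (0.330 to 26.3), from 4 and 1 chains. These intervals also held 1 and are wider. Families 1 and 2 with TRAJ 26 to 39 stood at 5.83% of autonomy (30 chains) and 1.89% of turnover chains (11 chains), a ratio of 3.09 (1.56 to 6.10). The TRB sets of these chains described above were not split by J group, and this ratio was not run with 1 chain per TRB clone. With TRAJ 25 or lower the ratio for families 1 and 2 was 1.30 (0.812 to 2.09).

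Family and segment pairs were many and mostly rare. Of 817 possible pairs of the 19 families and 43 TRAJ segments, 534 were seen in autonomy and 538 in turnover, 446 of them in both, and 156 and 150 pairs held 1 chain. The most frequent was TRAV6 with TRAJ4 in autonomy (19 chains) and TRAV6 with TRAJ31 in turnover (24 chains). TRAV11 with TRAJ18 is the join of invariant natural killer T cells. It was seen in 0 of 2057 autonomy chains, which allows up to 0.146%, and in 1 of 1988 turnover chains (0.0503%), shown for its identity.
TRAV11 with TRAJ18: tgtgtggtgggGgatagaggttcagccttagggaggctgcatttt
TRAV1 with TRAJ33, the join of mucosal-associated invariant T cells, was seen in 1 autonomy chain (0.0486%) and in 0 turnover chains, which allows up to 0.151%. Zbtb16, the transcription factor that marks both kinds of cell, was at 0 UMIs in autonomy cells with a chain and in 0.0572% of the turnover ones. Of the other genes of invariant natural killer T cells, Klrb1c had 1 UMI in autonomy and 0 in turnover, and Il2rb, a cytokine receptor chain found on other T cells as well, was detected in 4.94% of autonomy and 0.286% of turnover cells.

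Unmatched bases at the junction come mainly from terminal transferase. Autonomy chains carried a mean of 2.93 (SD 3.16 over 2034 scored chains, median 2) and turnover chains 3.11 (SD 3.35 over 1956 chains, median 3). By J group, the means in autonomy were 3.26 with TRAJ 40 or higher, 3.07 with 26 to 39 and 2.78 with 25 or lower, and in turnover 3.27, 3.24 and 2.94. Downstream joins carried the lowest mean in each library. None was found in 15.8% of autonomy and 15.2% of turnover chains, and the median CDR3 was 42 bases in each. The mean differed by -0.181 between autonomy and turnover (interval over chains -0.384 to 0.0208). Downstream minus upstream chains differed by -0.474 in autonomy (-0.874 to -0.0732) and by -0.327 in turnover (-0.683 to 0.0288), so that only the interval of the autonomy J groups did not hold 0. These calls moved with the processing, since with contigs of at least 3 UMIs autonomy minus turnover was -0.289 (-0.517 to -0.0602) and the autonomy J groups differed by -0.353 (-0.709 to 0.00313). With 1 chain per TRB clone, autonomy minus turnover was -0.240 (-0.461 to -0.0183). TRAJ44 chains were not scored, since too few germline bases could be inferred for that segment.

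Cells with 2 productive chains can carry a rearrangement on each allele and so show whether both alleles had moved to like places. Both chains lay in the same J group in 69.7% of such autonomy barcodes (131 of 188, 62.6 to 76.2) and 65.7% of turnover barcodes (130 of 198, 58.6 to 72.2). The group shares of the same chains would give 40.9% and 35.4% if chains were combined freely. A chain of TRAJ 40 or higher with one of TRAJ 25 or lower was found in 5 autonomy barcodes (2.66%, 0.869 to 6.10) and 8 turnover barcodes (4.04%, 1.76 to 7.81), where free combination would give 19.0% and 22.3%. The TRAJ numbers of the pair differed by a median of 6 in autonomy and 7 in turnover, against 15 over all pairings of these chains in each library. In 90 autonomy barcodes (47.9%) and 77 turnover barcodes (38.9%) the difference was 5 or less. The Spearman correlation of the TRAJ numbers, each pair entered in both orders, was 0.701 over 188 autonomy barcodes and 0.693 over 198 turnover barcodes, as a description. Some barcodes with 2 chains may be droplets with 2 cells, and no doublet caller was run.

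**Figure D3:**
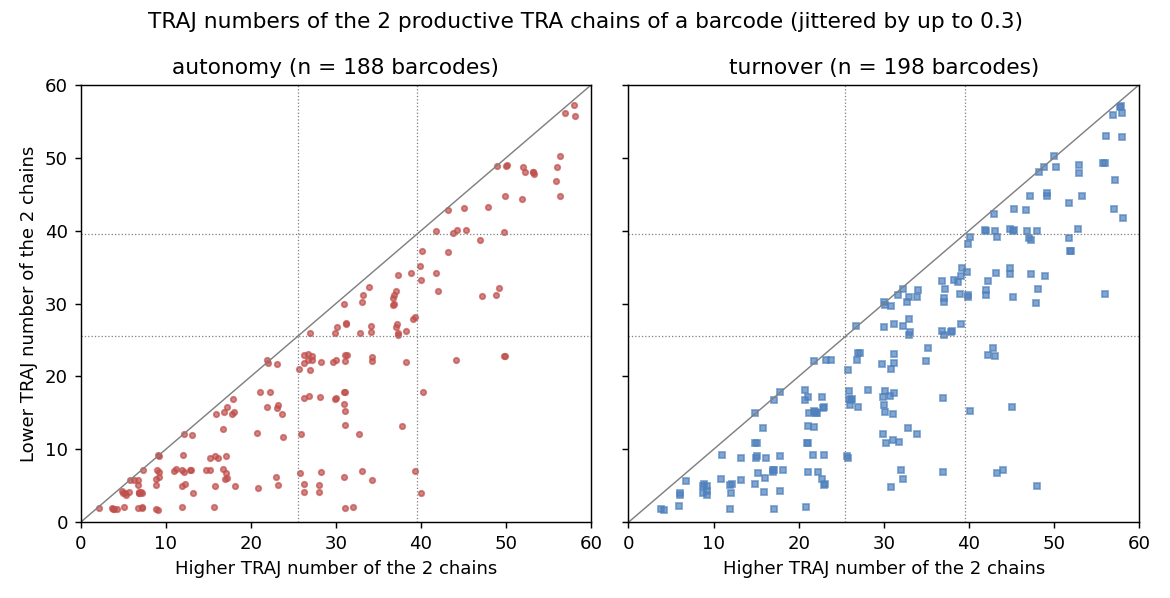
TRAJ numbers of the chains in barcodes with 2 productive TRA chains, the higher on the x axis and the lower on the y axis, for autonomy (left, 188 barcodes) and turnover (right, 198 barcodes). Dotted lines mark the J group bounds, and points were shifted by up to 0.3 to be seen. Points crowd along the diagonal, with a median difference of 6 in autonomy and 7 in turnover, and few lie in the lower right field that joins upstream with downstream segments.

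Most autonomy chains came from expanded TRB clones, so the J use of clones was looked at. Chains from autonomy TRB clones of 1 cell used TRAJ 25 or lower in 58.9% of cases (380 chains, 53.8 to 63.9), those from clones of 2 to 9 cells in 62.3% (467 chains, 57.7 to 66.7) and those from clones of 10 or more cells in 60.1% (837 chains, 56.7 to 63.4). In turnover it was 44.4% for clones of 1 cell (1787 chains, 42.1 to 46.8) and 27.8% for clones of 2 to 9 cells (36 chains, 14.2 to 45.2). Large and small autonomy clones thus had overlapping intervals. Single large clones, looked at after their values were seen, were less alike. The largest clone held 168 cells and 72 different TRA chains, of which 56.9% used TRAJ 25 or lower. The clone of rank 3 by size held 70 cells and 35 chains, with 85.7% of TRAJ 25 or lower (69.7 to 95.2) and 0% of TRAJ 40 or higher. The clone of rank 6 held 55 cells and 12 chains, with 8.33% of TRAJ 25 or lower (0.211 to 38.5) and 66.7% of TRAJ 40 or higher. Rag1 stood at 1075 CPM (its UMIs scaled to a common library total) in the rank 3 clone and 518 CPM in the rank 6 clone. The rank 5 clone had 1381 CPM with 40.9% of TRAJ 25 or lower, the rank 4 clone 1046 CPM with 45.8%, and the largest clone 722 CPM with 56.9%. The clones of rank 7, 2 and 8 had 1734, 921 and 574 CPM with 73.3%, 61.3% and 31.8%. Cells with at least 2 Mki67 UMIs made up 23.6% of the rank 6 and 12.2% of the rank 8 clone, and at most 3.23% of the other clones named.

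The third question was how J use went with the stage of the cell. Rag1 encodes a subunit of the recombinase, Itm2a a membrane protein induced when a thymocyte receives a selecting signal, and S1pr1 the receptor that guides mature thymocytes out of the thymus. A cell was placed by S1pr1 where it had a UMI of it, otherwise by Itm2a, otherwise by Rag1, and otherwise in none of these classes. In autonomy, TRAJ 25 or lower was used by 56.0% of chains in cells with none of the 3 markers (275 chains), 60.5% in cells with Rag1 only (1309 chains, 57.8 to 63.2), 54.4% in Itm2a cells (377 chains, 49.2 to 59.5) and 51.2% in S1pr1 cells (86 chains, 40.1 to 62.1). In turnover it was used by 42.0% with none of them (336 chains), 47.6% with Rag1 only (1198 chains, 44.7 to 50.5) and 37.0% in Itm2a cells (411 chains, 32.3 to 41.9). Turnover had 3 cells with S1pr1 and 3 chains in them, too few for a share.

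Itm2a cells thus used the downstream segments less often than Rag1-only cells in each library. The share of TRAJ 25 or lower in Itm2a over Rag1-only cells was 0.899 in autonomy (0.811 to 0.996) and 0.777 in turnover (0.676 to 0.894). For TRAJ 40 or higher the ratio was 1.35 in autonomy (20.4% and 15.1%, interval 1.07 to 1.71) and 1.27 in turnover (30.9% and 24.4%, 1.06 to 1.51). In S1pr1 over Rag1-only cells of autonomy the ratio for TRAJ 25 or lower was 0.846 (0.685 to 1.04). The median TRAJ number was 21 in Rag1-only, 23 in Itm2a and 24 in S1pr1 cells of autonomy, and 26 in Rag1-only and 31 in Itm2a cells of turnover. With 1 chain per TRB clone and class, the autonomy ratio for Itm2a cells was 0.962 (0.839 to 1.10), an interval that holds 1. It also held 1 with contigs of at least 3 UMIs (0.903), with thinned cells (0.895) and with at least 2 UMIs of a marker (0.930).

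**Figure D4:**
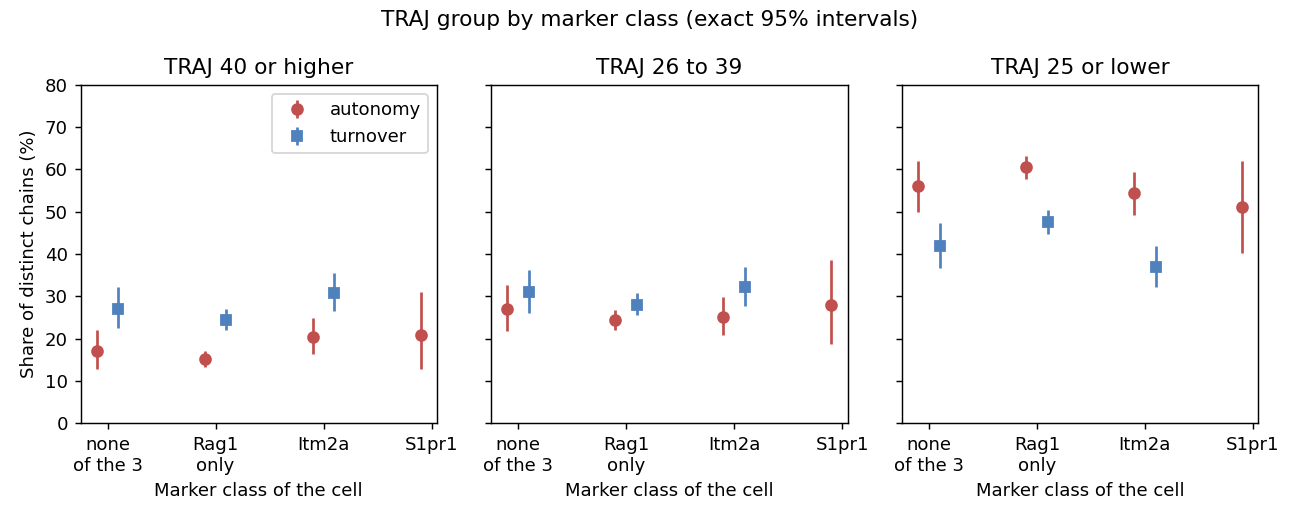
Share of distinct TRA chains (y axis, percent, exact 95% intervals) with TRAJ 40 or higher (left), 26 to 39 (middle) and 25 or lower (right), by the marker class of the cell on the x axis, for autonomy (red circles) and turnover (blue squares). S1pr1 cells of turnover, with 3 chains, are not drawn. In the right panel autonomy lies above turnover in each class drawn for both, and Itm2a cells lie below Rag1-only cells in both libraries.

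The difference between the libraries was seen in each class. The share of TRAJ 25 or lower in autonomy over turnover was 1.33 (1.13 to 1.57) in cells with none of the 3 markers, 1.27 (1.18 to 1.37) in Rag1-only cells and 1.47 (1.26 to 1.72) in Itm2a cells. The share of TRAJ 40 or higher was 0.631 (0.461 to 0.864), 0.621 (0.527 to 0.730) and 0.661 (0.517 to 0.845) of that in turnover. The classes differ in depth, with median UMIs per cell of 2618, 2318, 3943 and 11168 for none, Rag1 only, Itm2a and S1pr1 in autonomy and 2196, 1947 and 3533 for the classes of turnover without S1pr1. After thinning each cell to 1000 UMIs, TRAJ 25 or lower was used by 62.6% of chains in Rag1-only and 56.0% in Itm2a cells of autonomy, and by 51.0% and 40.8% of those in turnover. Free RNA can place a cell wrongly. Cycling cells with at least 2 UMIs of Mki67, which should lack the selection markers, held Itm2a in 37.3% of autonomy and 47.1% of turnover cells (median UMIs 16105 and 16709) and S1pr1 in 4.48% and 0.182%. Their Itm2a level was 42.6 CPM in autonomy and 43.96 CPM in turnover, against 472 CPM and 371 CPM in all cells with a chain. Cycling cells, 201 in autonomy and 548 in turnover, thus enter the Itm2a class, which held 512 and 807 cells with or without a chain. How many of them carried a chain was not counted, and the J use of the class was not run without them.

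Pairing by class was limited by few chains. In Rag1-only cells, families 16 or higher made up 15.7% of autonomy chains with TRAJ 40 or higher (31 of 198) and 2.40% of those with TRAJ 25 or lower (19 of 792), and in turnover 18.8% (55 of 292) and 2.46% (14 of 570). In Itm2a cells the shares were 9.09% (7 of 77, 3.73 to 17.8) and 6.83% (14 of 205, 3.78 to 11.2) in autonomy, with overlapping intervals, and 18.9% (24 of 127, 12.5 to 26.8) and 2.63% (4 of 152, 0.722 to 6.60) in turnover. In autonomy S1pr1 cells they were 27.8% (5 of 18) and 13.6% (6 of 44).

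Marker levels were then taken over cells with exactly 1 chain, by its J group. Rag1 stood at 570 CPM (527 to 614), 709 CPM (667 to 752) and 902 CPM (869 to 937) in autonomy cells with TRAJ 40 or higher, 26 to 39 and 25 or lower (275, 408 and 989 cells). In turnover cells it stood at 624 CPM (583 to 666), 973 CPM (917 to 1032) and 1187 CPM (1133 to 1243), over 408, 452 and 688 cells. Summed over cells, Rag1 was thus higher with every step down the J cluster in each library. The ratio of TRAJ 25 or lower over TRAJ 40 or higher was 1.58 in autonomy (1.45 to 1.73) and 1.90 in turnover (1.76 to 2.07). With 1 cell per TRB clone the autonomy ratio was 1.30 (1.16 to 1.46). Deep cells weigh most in such sums, and cycling cells (at least 2 Mki67 UMIs, medians 16105 and 16709 UMIs) held Rag1 at 120 CPM in each library. Cells with an Mki67 UMI made up 5.82% of autonomy and 10.05% of turnover cells with TRAJ 40 or higher. With TRAJ 25 or lower they made up 1.01% and 1.45%. No run without cycling cells was made. With cells thinned to 1000 UMIs the ratios were 1.61 and 1.70. The share of cells with a Rag1 UMI, after thinning to 1000 UMIs, went the same way, 44.4%, 48.8% and 55.4% in autonomy and 45.3%, 54.0% and 62.2% in turnover (unthinned 66.9%, 69.4% and 71.9%, and 65.7%, 67.7% and 73.8%). S1pr1 cells of autonomy, which should have lost Rag1, held a UMI of it in 8.51% of cases at a median of 11168 UMIs.

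**Figure D5:**
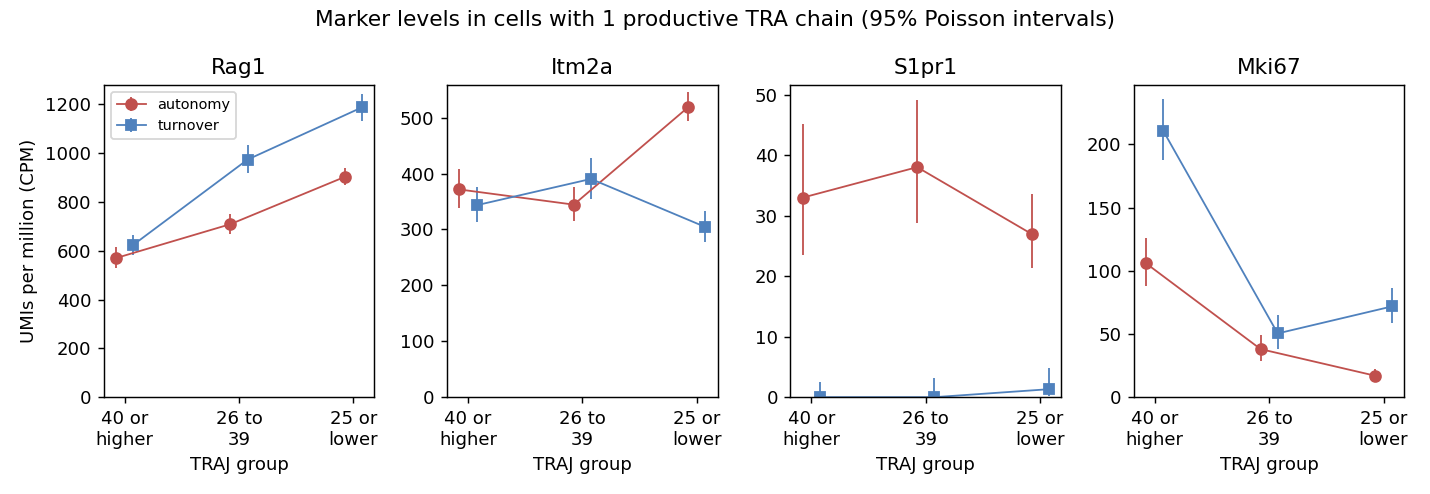
Level of Rag1, Itm2a, S1pr1 and Mki67 (y axis, CPM, 95% Poisson intervals) in cells with exactly 1 productive TRA chain, by the TRAJ group of that chain on the x axis, for autonomy (red circles) and turnover (blue squares). Each panel has its own scale. Rag1 reaches 902 CPM in autonomy and 1187 CPM in turnover with TRAJ 25 or lower, and Mki67 has its highest level, 106 CPM and 211 CPM, with TRAJ 40 or higher.

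Itm2a gave no clear order. In autonomy it stood at 372 CPM, 344 CPM and 519 CPM from the upstream to the downstream group, but the share of cells with a UMI ran the other way (22.5%, 18.6% and 17.7%), so no order is read. In turnover it stood at 343 CPM, 390 CPM and 304 CPM, a downstream over upstream ratio of 0.887 (0.779 to 1.01), and 1.03 with every cell placed by its lowest TRAJ number. S1pr1 stood at 33.02 CPM, 38.1 CPM and 27.01 CPM in autonomy (ratio 0.818, 0.552 to 1.23), and at 0, 0 and 1.32 CPM (2 UMIs in the downstream group) in turnover.

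Proliferation markers lay on the upstream side. Mki67 stood at 106 CPM, 38.1 CPM and 17.01 CPM in autonomy and at 211 CPM, 50.4 CPM and 71.8 CPM in turnover, a downstream over upstream ratio of 0.161 (0.114 to 0.224) and 0.341 (0.271 to 0.426). These UMIs came from only 16, 8 and 10 cells in autonomy and 41, 11 and 10 cells in turnover. The intervals count UMIs and not cells, so they are too narrow for a spread between cells. No run with 1 cell per TRB clone was made for Mki67 or the other cell cycle genes. In cells thinned to 1000 UMIs the Mki67 ratio was 0.0585 in autonomy and 0.122 in turnover. The cells with TRAJ 40 or higher were also the deepest, with medians of 3297, 2694 and 2332 UMIs in autonomy and 2588, 2049 and 1763 UMIs in turnover. Summed macrophage markers (C1qa, C1qb, C1qc, Tyrobp, Lyz2 and Csf1r) stood at 207, 199 and 98.4 CPM in autonomy and at 9.13, 6.96 and 19.8 CPM in turnover. All 6 were detected in autonomy cells with a chain and 5 of 6 in turnover ones, with Csf1r at 0. Without the 54 autonomy and 5 turnover cells that held at least 2 of them, the Rag1 ratios were 1.60 (1.46 to 1.74) and 1.91 (1.76 to 2.07).

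Lists of genes of the same pathways were compared between cells with TRAJ 25 or lower and TRAJ 40 or higher, for genes with at least 100 UMIs over both groups. In autonomy, 401 of 5963 genes were at least 1.5-fold higher with TRAJ 25 or lower (6.72%) and 141 were at least 1.5-fold lower (2.36%). In turnover, 379 of 4507 were higher (8.41%) and 166 lower (3.68%). The median log2 ratio of all genes was 0.10 in autonomy and 0.14 in turnover, and values below are to be read against it. With TMM factors (a scaling that sets the bulk of genes level) the counts were 258 higher and 206 lower in autonomy and 165 higher and 280 lower in turnover, and the median log2 ratios were 0.00 and -0.01.

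Of the recombination genes, 9 of 12 were measured in each library. In autonomy 1 was at least 1.5-fold higher (Rag1) and 1 at least 1.5-fold lower (Hmgb2), and in turnover 2 were higher (Rag1 and Dclre1c) and 1 lower (Hmgb2). With TMM factors the autonomy ratio of Rag1 was 1.48, under the 1.5-fold bound, and that of turnover 1.72. Rag2, the other recombinase subunit, stood at 394 and 336 CPM in autonomy cells with TRAJ 25 or lower and 40 or higher (ratio 1.17, 1.04 to 1.32) and at 452 and 351 CPM in turnover (1.29, 1.15 to 1.45). Dclre1c, the nuclease that opens the coding ends, had ratios of 1.40 (1.05 to 1.89) in autonomy and 1.52 (1.17 to 1.97) in turnover, and 1.31 and 1.37 with TMM factors. Dntt, the terminal transferase, was level with ratios of 1.004 (0.939 to 1.07) and 1.03 (0.977 to 1.09). Hmgb2, a chromatin protein that is high in dividing cells, stood at 236 and 735 CPM in autonomy (0.322, 0.291 to 0.356) and at 699 and 1793 CPM in turnover (0.390, 0.363 to 0.419).

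Of the cell cycle genes, 8 of 10 were measured in autonomy and 10 of 10 in turnover. In autonomy 5 were at least 1.5-fold lower with TRAJ 25 or lower and in turnover 8, none was at least 1.5-fold higher, and the counts were the same with TMM factors. The median log2 ratio of the list was -1.76 in autonomy and -1.58 in turnover. Top2a, the topoisomerase of dividing cells, stood at 33.3 and 180 CPM in autonomy cells with TRAJ 25 or lower and 40 or higher (ratio 0.185) and at 119 and 435 CPM in turnover (0.274). Ube2c, a mitotic ubiquitin-conjugating enzyme, had ratios of 0.152 and 0.248, and Ccnb2, a mitotic cyclin, 0.215 and 0.265. Of the replication genes, Tyms had ratios of 0.405 (0.306 to 0.536) and 0.563 (0.438 to 0.721), Mcm5 0.782 and 0.648, Mcm6 1.04 (0.841 to 1.29) and 0.762 (0.597 to 0.971), and Pcna 0.741 and 0.809. In cells thinned to 1000 UMIs, Pcna stood at 1.01 in autonomy and 1.43 in turnover and Tyms at 0.556 and 1.09, so that both lay above 1 in turnover. Ccnb2 stood at 0.0278 and 0.0456 in thinned cells.

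Of 11 genes of double positive survival and of access to the Tra locus, all were measured and none passed 1.5-fold in either library. Bcl2l1, which encodes the survival protein Bcl-xL, had ratios of 0.922 (0.775 to 1.10) in autonomy and 1.12 (0.897 to 1.40) in turnover. Tcf7, a transcription factor needed for the survival of double positive cells, stood at 0.869 (0.819 to 0.922) and 0.824 (0.777 to 0.875). Myb stood at 1.25 and 1.18, and Ets1 at 1.25 and 1.23. Ctcf and Rad21, which fold chromatin loops, stood at 0.772 and 0.935 in autonomy and at 0.841 and 0.858 in turnover.

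Of 13 genes of the selection response, 12 were measured in autonomy and 11 in turnover. In autonomy 1 was at least 1.5-fold higher with TRAJ 25 or lower (Cd53) and none lower, and in turnover 2 were higher (Cd53 and Egr1) and 1 lower (Nr4a1). With TMM factors none was higher in either library and 4 were lower in turnover. Cd53, a tetraspanin, had ratios of 1.58 (1.30 to 1.94) in autonomy and 1.62 (1.21 to 2.18) in turnover. Nr4a1, an immediate response gene of receptor signals, had ratios of 0.802 (0.675 to 0.955) and 0.526 (0.382 to 0.719). Egr1, another such gene, had ratios of 0.917 (0.789 to 1.07) and 1.65 (1.32 to 2.07). Cd5, whose level follows the strength of receptor signals, had ratios of 1.11 (0.995 to 1.24) and 0.731 (0.645 to 0.827). Cd69, an activation marker, had ratios of 1.24 (1.03 to 1.496) and 1.44 (1.16 to 1.79).

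Of 10 genes of mature thymocytes, 10 were measured in autonomy and 4 in turnover, and none passed 1.5-fold. The nearest was Bcl2, a survival gene, at 1.45 (1.17 to 1.82) in autonomy and 0.977 (0.647 to 1.48) in turnover. Of 9 receptor chain genes 8 were measured and none passed 1.5-fold. The CD3 chains stood above 1 in each library with total UMIs as the scale, with Cd3g at 1.26 and 1.36, Cd3e at 1.20 and 1.25 and Cd3d at 1.18 and 1.11. Cd3d was at 1.10 and 0.9998 with TMM factors. Trac, the constant part of the alpha chain, stood at 1.11 (0.951 to 1.30) in autonomy and 0.806 (0.695 to 0.934) in turnover.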

How the data were processed

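The authors deposited UMI counts per gene and cell and, for V(D)J, contig tables with segment calls, productive calls and UMI counts per contig. The submitters' processing notes name Cell Ranger 3.0.2, Seurat 3.1.3.9002 and mm10. Which V(D)J reference, annotation and cell calling they used is not given in the sources used here.

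The members, gene lists and J group bounds were chosen with earlier results of these data known. Contigs called TRA, productive and full length were kept. Cells with at least 500 genes, at least 1000 UMIs and at most 10% mitochondrial UMIs were joined to chains by barcode within a condition. No doublet caller was run, and barcodes with more than 2 TRA or TRB chains were left out as an alternative. With 1 library per condition no model was fitted. Shares carry exact (Clopper-Pearson) intervals, ratios of shares log-normal ones, ratios of UMI rates conditional exact binomial ones and CPM exact Poisson ones, all at 95%. A limit for a count of 0 is 3 counts of the total. For matched depth, cells were thinned to 1000 UMIs. A TRB clone was all cells with the same set of productive TRB chains. Germline ends were inferred from at least 10 chains of a segment. Segments and families picked by use or ratio were the 4 most used in each library and, among those with at least 40 chains, the 4 highest and 4 lowest ratios. Others were named for passing 1.5-fold, for their place in the locus or as examples, some with fewer than 40 chains. Of each gene list only some measured members are named. Single TRB clones were named after their values were seen. TMM factors came from edgeR 4.0.16 in R 4.3.3, and all else was computed with scipy 1.17.1, numpy 2.4.6 and pandas 2.3.3 under Python 3.11.15 and drawn with matplotlib 3.10.9. Only the ratios of UMI rates and the junction estimate were tried on simulated data, with independent counts and random segments. The shares, pairing, marker classes, clones and cells with 2 chains were not.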

Additional observations from a re-analysis of the deposited data

Results flagged for a closer look

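Among the genes of the fixed lists, 3 lay on opposite sides of 1 in the libraries, with intervals that did not hold 1, when cells with TRAJ 25 or lower were set over cells with TRAJ 40 or higher. With 1 library per condition the difference between the libraries was not tested for any of them. Trbc1, a constant segment of the beta chain, had a ratio of 1.40 in autonomy (1.25 to 1.57) and 0.792 in turnover (0.742 to 0.845). Xrcc6, which encodes the end-joining protein Ku70, had a ratio of 0.746 in autonomy (0.682 to 0.816) and 1.15 in turnover (1.03 to 1.29). Hmgb1, a chromatin protein that assists the recombinase, had a ratio of 1.10 in autonomy (1.05 to 1.15) and 0.934 in turnover (0.897 to 0.971). With 1 cell per TRB clone, Trbc1 stood at 1.38 in autonomy and 0.789 in turnover, Xrcc6 at 0.579 and 1.16, and Hmgb1 at 1.003 and 0.942. The intervals of Trbc1 did not hold 1 in either library under any alternative run for it. For Xrcc6 the turnover interval held 1 with thinned cells (1.12, 0.935 to 1.35) and with TMM factors (1.04, 0.932 to 1.17), and the autonomy interval with thinned cells (0.923, 0.781 to 1.10). For Hmgb1 the autonomy interval held 1 with TMM factors (1.02, 0.977 to 1.08) and with 1 cell per TRB clone (1.003, 0.939 to 1.07), and the turnover interval with thinned cells (1.07, 0.998 to 1.15).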

How the results depend on the processing

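Across 150 comparisons of a result with an alternative, 117 moved by less than the spread allowed and 31 by more. The other 2 changed sides of 1 where the main interval did not hold 1. A change of side was not counted as such where the main interval held 1. This was so for Itm2a in turnover, at 0.887 in the main run and 1.03 by the lowest TRAJ. No paired analysis was possible because each condition had 1 library of each kind and the labels carried no replicate numbers. The J group shares, the shares by marker class, the junction means, the pairs of chains and the unproductive joins kept their direction under all alternatives run, with ratios of 1.24 to 1.37 for TRAJ 25 or lower and 0.572 to 0.680 for TRAJ 40 or higher in autonomy over turnover. The share of TRAV families 1 and 2 in autonomy over turnover changed sides with 1 chain per TRB clone (0.993). With families 17 or higher in place of 16 or higher, their share in autonomy over turnover was 0.502, and their share on downstream over upstream J segments 0.0355 in autonomy and 0.00890 in turnover. The Rag1 ratio was 1.30 with 1 cell per TRB clone and 2.06 with bounds of TRAJ 45 and 22 in autonomy, and 1.70 with thinned cells and 2.18 with those bounds in turnover. The Itm2a ratio in autonomy was 1.11 with thinned cells, 1.23 by the lowest TRAJ and 1.17 with those bounds, and in turnover 0.764 with thinned cells and 1.03 by the lowest TRAJ. Genes at least 1.5-fold higher with TRAJ 25 or lower numbered 40 in autonomy and 33 in turnover with a minimum of 500 UMIs, where fewer genes were tested, 247 and 163 with thinned cells and 258 and 165 with TMM factors. Those at least 1.5-fold lower numbered 30 in autonomy and 34 in turnover with 500 UMIs and 85 and 56 with thinned cells. With TMM factors they numbered 206 in autonomy and 280 in turnover. The number of genes tested is not given here for the runs with 500 UMIs and with thinned cells. The counts of these runs therefore give no share, and a lower count than in the main run is not read as a lost difference. In autonomy the Hmgb1 ratio was 1.24 with thinned cells, 1.02 with TMM factors and 1.003 with 1 cell per TRB clone, and in turnover 1.07 with thinned cells, where it changed sides. Xrcc6 in autonomy was 0.923 with thinned cells and 0.579 with 1 cell per TRB clone. Comparisons with 1 cell per TRB clone for these genes and with 1 chain per TRB clone and marker class were added after the data were seen. Except where the construction of an alternative shows it, the cause was not tested. Single J segments and S1pr1 cells were limited by few chains.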
